A study of Drosophila melanogaster with 27 samples.

Results

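Many *Drosophila* genes still carry only a computed gene number, CG followed by digits, in place of a name, and 76 such genes had their highest transcript level around pupariation and a wide range over the onset of metamorphosis. The 76 probe sets, each of a different gene, were taken from 4910 probe sets with a CG symbol, among 13966 on the array. Intensities were floored at 60, converted to log2 and averaged over the 3 arrays of each stage. A gene was kept when its highest stage mean fell at -4 or 0 h, when that mean was at least 4-fold above the lowest one, and when all 3 arrays of the highest stage lay above 60. The genes were thus selected on the stage of the highest mean and on the range, and the rise to that stage and the fall from it are described here without a test.

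Pupariation is the hardening of the larval skin into the puparium. It is set off by a pulse of the steroid hormone 20-hydroxyecdysone (20E) in the late last instar, and a later pulse in the prepupa precedes head eversion. 20E acts through a heterodimer of the nuclear receptors EcR and USP, which induces a set of early regulatory genes, and these in turn control late genes in each tissue. Over the same hours the salivary glands release the glue that fixes the puparium to its substrate, the larval midgut begins to be replaced, and the cuticle is tanned.

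To follow these hours, RNA was measured in whole *w1118* animals, a white-eyed laboratory strain, with no other allele or treatment in any group. Larvae grown on food with 0.05% bromophenol blue were collected while wandering, with dark blue guts for -18 h and with cleared guts for -4 h. Prepupae were timed from pupariation and taken at 0, 2, 4, 6, 8 and 10 h, and pupae at 12 h. Each of the 27 samples, 3 for each of 9 stages, was the pooled RNA of 10 animals on 1 array. In such whole-animal samples, fewer cells of a type and less RNA per cell cannot be told apart, and a gene's tissue was not measured.

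Array medians lay between 249.4 and 277.3 intensity units. An intensity has no common scale across genes, so levels are compared only within a gene, and the number of arrays, 3 per stage, limits the precision. Larval arrays were the most variable. On the log2 scale the 76 genes had a median SD of 0.461 in the -18 h arrays and 0.271 in those of -4 h, against 0.245 for 12 h, 0.235 for 2 h, 0.193 for 6 h and 0.102 to 0.147 for the other stages. At -18 h, replicate 2 was at least 2-fold below both other arrays in 12 of the 76 genes (15.8%, against 4.31% of all tested probe sets), and at -4 h replicate 1 was so in 5 (6.58% against 1.99%). Without these 2 arrays the same rule gave 74 genes, of which 69 were among the 76 and 66 of those had the same highest stage.

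Of the 76 genes, 23 were highest at -4 h and 53 at 0 h. Under the same rule 129 of 7532 probe sets of named genes qualified (1.71%, against 1.55% for CG symbols), 30 at -4 h and 99 at 0 h. Other CG probe sets with a 4-fold range were highest at -18 h in 82 cases, at 2 or 4 h in 45, at 6 or 8 h in 97 and at 10 or 12 h in 106. The median range was 3.03 (log2) for the genes highest at -4 h and 2.63 for those highest at 0 h, and 19 of the 76 spanned at least 16-fold. At the limit of the rule, CG12974 and CG34417 lay just inside with ranges of 2.00 and 2.003, and CG1265 and CG9003 just outside with 1.996 and 1.994.

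**Figure D1:**
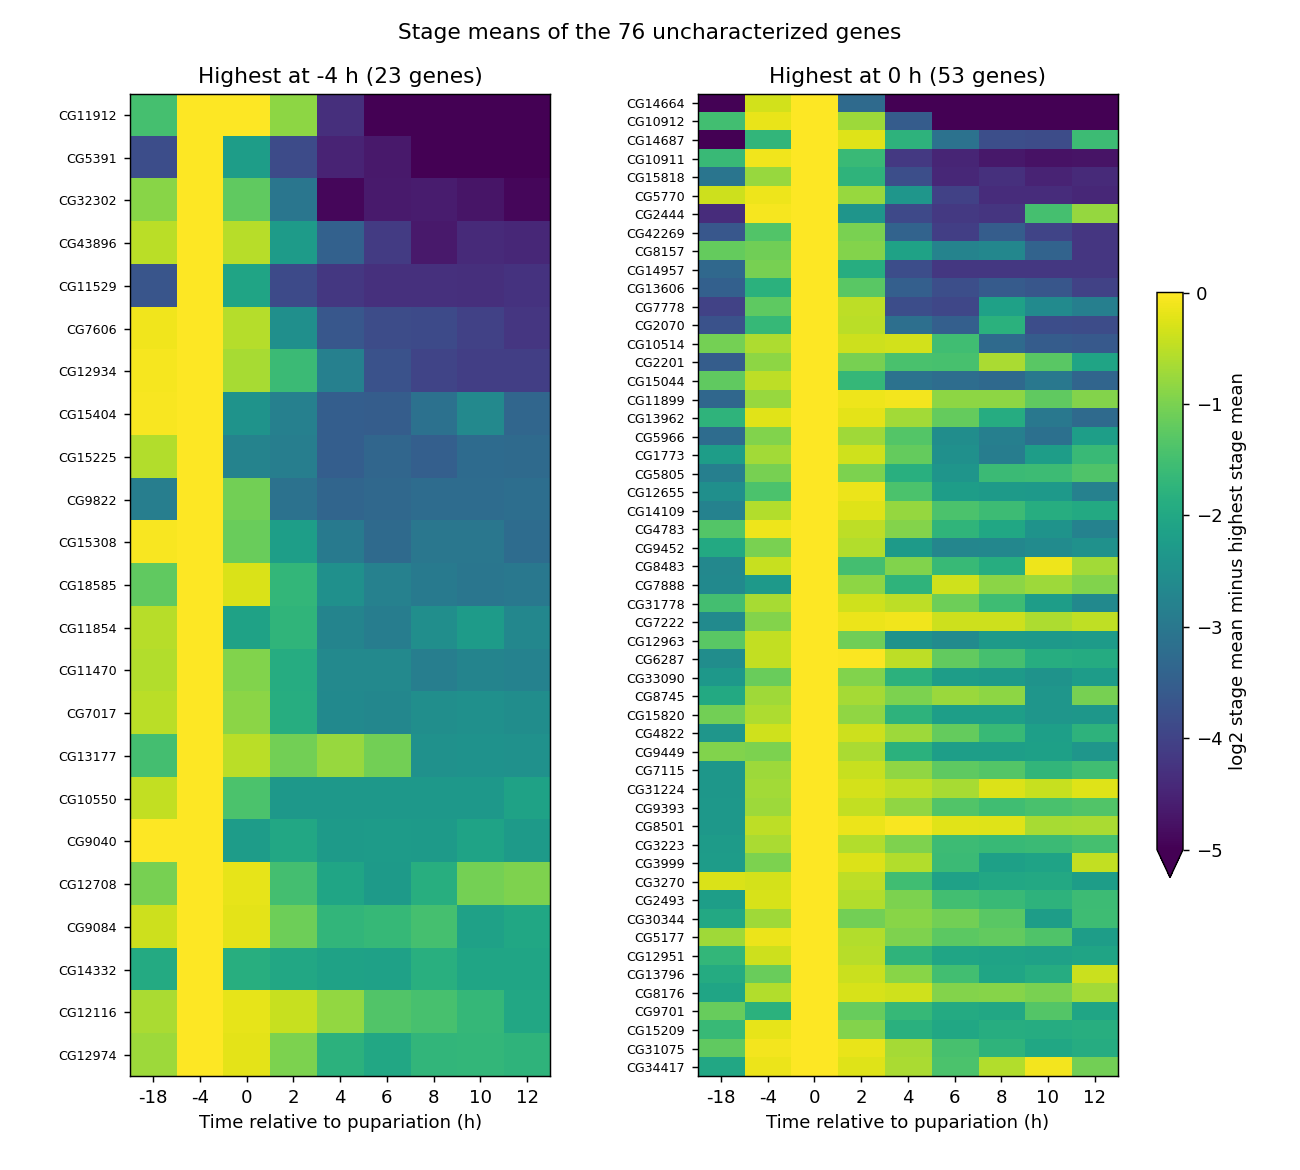
Stage means of the 76 genes (rows) at the 9 stages (columns, hours relative to pupariation), as log2 differences from each gene's highest stage mean after flooring at 60, for the 23 genes highest at -4 h (left) and the 53 highest at 0 h (right), in order of range. At -18 h, 15 genes on the left were within 2-fold of their highest mean, while 22 genes on the right had their lowest stage mean there.

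The groups differed on both sides of the peak, in part through the way they were formed. They were split by the stage of the highest mean and then compared at fixed times. Both -18 h and 4 h lie at unequal distances from the highest stages of -4 and 0 h. At -18 h the median gene was 0.57 (log2) below its highest level among those highest at -4 h and 2.25 below it among those highest at 0 h. At 4 h the medians were 2.75 and 1.42 below the highest level, and at 8 h the median differences from that level were -2.92 and -2.01. A gene is called larval-high here when its -18 h mean was within 2-fold of its highest, and induced when it was at least 4-fold below. There were 15 larval-high and 3 induced genes among the 23, and 4 larval-high and 31 induced genes among the 53. By 4 h, 19 of the 23 genes (82.6%) and 15 of the 53 (28.3%) had fallen at least 4-fold from their highest level.

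**Figure D2:**
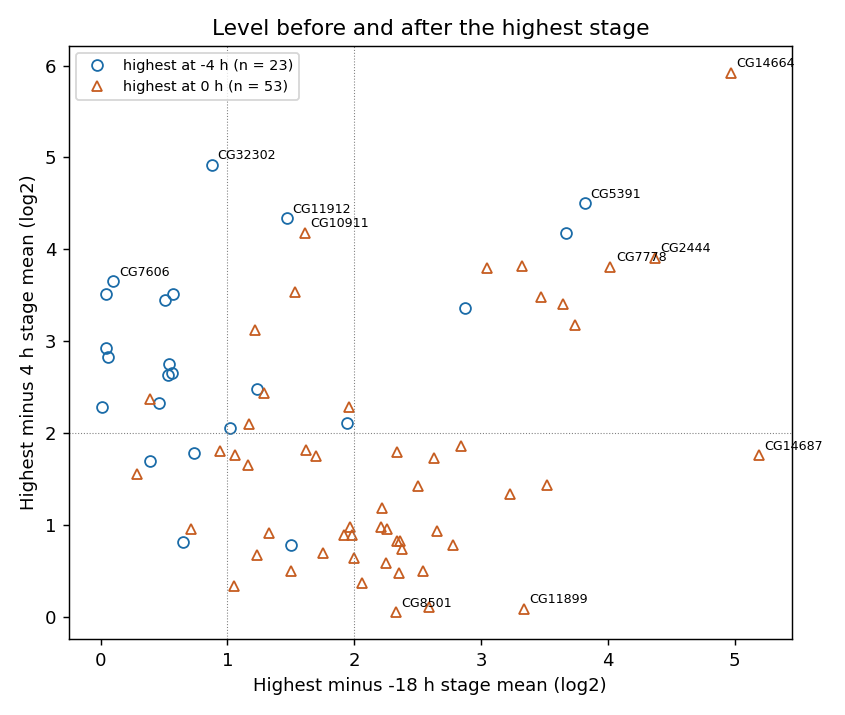
For each of the 76 genes, the log2 distance of the -18 h mean (horizontal) and of the 4 h mean (vertical) below the highest stage mean, with circles for genes highest at -4 h and triangles for genes highest at 0 h; dotted lines mark 2-fold and 4-fold on the horizontal axis and 4-fold on the vertical one. CG14664 lies far out on both axes, CG14687 and CG11899 were low at -18 h and at 4 h stood 3.39- and 1.07-fold below their highest means, and CG32302 and CG7606 were high at -18 h and low at 4 h.

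Among genes highest at -4 h, the widest range was that of CG11912, for which the gene table gives the serine protease name SP140. It measured 4392, 1474 and 4001 at -18 h, 8033, 8276 and 8325 at -4 h, 8188, 8160 and 7985 at 0 h, and 4411, 4356 and 4850 at 2 h. At 4 h the arrays read 1016, 207 and 319, and from 6 to 12 h every array lay between 81 and 141. The level was flat from -4 to 0 h and then fell to a trough 91.0-fold below the highest mean, with replicate 1 of 4 h above the other 2 arrays of that stage.

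Of the 23 genes of this group, 15 were within 2-fold of their highest level at -18 h, and 12 of these 15 had fallen at least 4-fold by 4 h. CG7606 read 14706, 15587 and 15022 at -18 h, 16420, 14541 and 17850 at -4 h, and 10141, 13238 and 10018 at 0 h. It then fell to 2155, 1740 and 6051 at 2 h and to 1280, 1291 and 1306 at 4 h. The arrays of -18 and -4 h overlapped, and those of 4 h lay below all arrays from -18 to 2 h. CG12934 went from 3686, 4560 and 4184 at -4 h to 585, 640 and 521 at 4 h, with 4629, 3204 and 4183 at -18 h, again with overlap between the larval stages. CG32302 measured 3445, 1402 and 2520 at -18 h, 4004, 4803 and 3949 at -4 h and 120, 156 and 146 at 4 h, a 30.3-fold difference between the last 2 means.

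CG43896 and CG15404 completed the larval-high genes among the 8 widest ranges at -4 h. CG43896 read 2380, 839 and 1493 at -18 h, 1892, 2267 and 2013 at -4 h and 227, 170 and 172 at 4 h, with overlap between the larval stages. CG15404 was already down at pupariation, from 3624, 3582 and 5716 at -4 h to 657, 1190 and 598 at 0 h, with no overlap.

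The named genes with the most similar stage means included glue genes of the salivary gland, digestive protease genes of the midgut and cytochrome P450 genes. Over the 9 stage means, which share the same 27 arrays, CG7606 was most like the glue protein gene *Sgs8* (Pearson's r = 0.998), the cytochrome P450 gene *Cyp12a4* (0.997) and the trypsin gene *epsilonTry* (0.99). CG32302 was most like *Sgs5bis* (0.993), *Cyp12a4* (0.989) and *Sgs8* (0.987). CG12934 was most like the Jonah protease genes *Jon65Aii* (0.993), *Jon65Aiv* (0.993) and *Jon65Aiii* (0.991), and CG43896 most like *Cyp4p1* (0.988), *Jon99Fi* (0.984) and *Jon99Fii* (0.982). CG15404 was most like *Ser8* (0.989), *hoe1* (0.981) and *Cpr67B* (0.979). The correlations are descriptions, chosen as the highest among named genes with a 4-fold range.

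Marker genes of these tissues also fell, though the midgut proteases began to fall earlier than the genes described here. A listed gene counts as measured here when it had a tested probe set with that gene's symbol alone. Of 9 listed glue genes 7 were measured, and their summed intensity lay between 69045 and 77326 in the -18 h arrays, between 70415 and 75695 in those of -4 h, between 26600 and 35927 in those of 0 h and between 3473 and 4420 in those of 4 h. For midgut proteases, with 14 of 15 measured, the sums lay between 179246 and 189724, between 93894 and 116102, between 60527 and 68390, and between 11854 and 14228 in the same arrays. The part of these tissues in the fall of the larval-high genes was not tested.

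Only 3 genes highest at -4 h were induced, and they formed a short pulse. CG5391 rose from 809, 573 and 563 at -18 h to 7811, 9056 and 10319 at -4 h and read 998, 3076 and 2437 at 0 h, still above every -18 h array. CG11529, annotated as a serine-type endopeptidase, rose from 276, 152 and 290 to 2614, 3186 and 3035 and fell to 447, 965 and 771. CG9822, listed with the name Agr-like, rose from 181, 314 and 210 to 1725, 1612 and 1678 and fell to 427, 1170 and 1008.

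In all 3 genes the -4 h arrays lay above every other array, and replicate 1 was the lowest of the 0 h arrays. CG5391 and CG11529 had the same 2 named genes as closest matches, the UDP-glycosyltransferase gene *Ugt301D1* (r = 0.958 and 0.925) and the glucose dehydrogenase gene *Gld* (0.956 and 0.967). From 4 h on, CG11529 did not leave the range of 131 to 178.

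The most extreme pulse at 0 h was that of CG14664. It measured 249, 521 and 272 at -18 h, 9031, 7504 and 7978 at -4 h, 10558, 10084 and 10229 at 0 h, 1424, 1274 and 659 at 2 h and 165, 171 and 174 at 4 h. The arrays of -4 and 0 h stood apart from all others, and the highest mean was 31.4-fold above that of -18 h and 60.6-fold above that of 4 h. The closest named profile was the esterase gene *Est-P* (r = 0.98).

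Including CG14664, 8 genes highest at 0 h were both induced and at least 4-fold down by 4 h. CG15818 rose from 242, 120 and 190 at -18 h to 1606, 1483 and 1329 at 0 h and fell to 103, 114 and 100 at 4 h. CG42269 rose from 79, 150 and 99 to 1347, 1291 and 1342 and fell to 135, 124 and 116. The other 5 were CG2444, CG14957, CG13606, CG7778 and CG2070. CG14957 was under the floor in every array from 6 to 12 h, so its 0 h mean was at least 18.3-fold above those stages. CG42269 was most like *Npc2e* (r = 0.957), *br* (0.941), the broad gene of the early 20E response, and *slgA* (0.933). The match to *br* rests on the probe set that rose 3.65-fold from -18 to -4 h. Others of *br* rose 1.44- and 1.22-fold there, were not called and had too small a range to be compared.

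**Figure D3:**
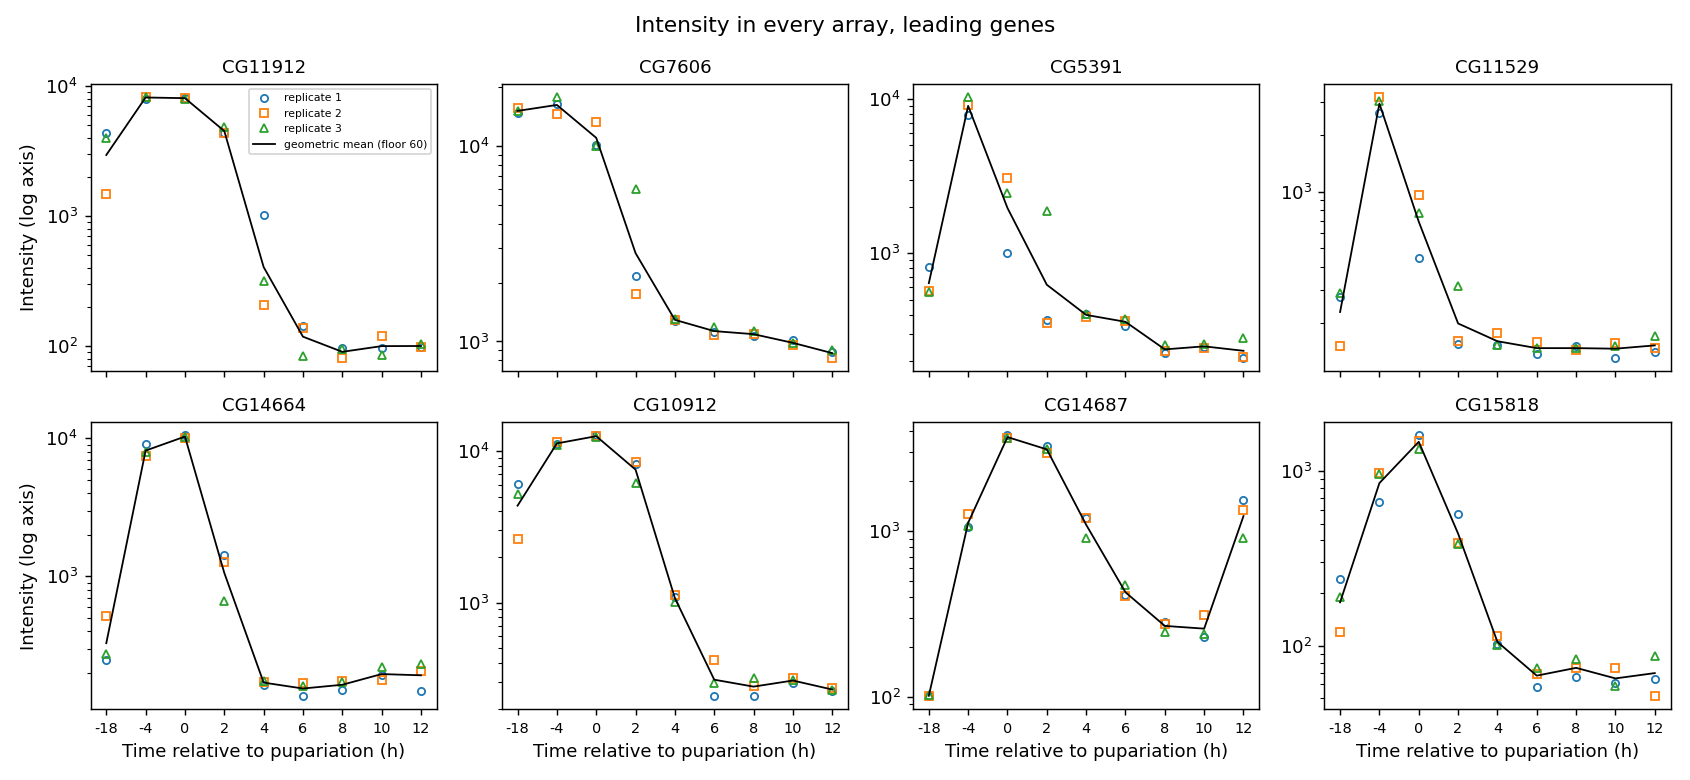
Intensity (log axis) of 8 genes with wide ranges in each of the 27 arrays against the time relative to pupariation in hours, with a symbol for each replicate and a line through the geometric means of floored values. CG5391 and CG11529 were highest at -4 h and at 0 h still lay above their -18 h arrays, CG14664 stood high at -4 and 0 h, and CG14687 rose again at 12 h.

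CG10912 and CG10911, with a -18 h level neither low nor close to the peak, came down steeply after 0 h, as did CG5770. CG10912 read 6042, 2618 and 5190 at -18 h, 12709, 12452 and 12414 at 0 h, and 1091, 1128 and 1008 at 4 h, with a range of 46.9-fold over the course. CG10911 read 1873, 2576 and 934 at -18 h, 5251, 4805 and 5097 at 0 h and 267, 290 and 281 at 4 h. CG5770 was larval-high, at 1502, 657 and 1045 at -18 h, 1411, 1381 and 1180 at 0 h and 312, 211 and 254 at 4 h.

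These 3 genes lie together on chromosome arm 2R. In the gene table no protein-coding gene separates CG10911 from CG10912, and 5 lie between CG10912 and CG5770. Their stage means correlated at r = 0.98 for CG10911 with CG10912 and 0.99 for CG10912 with CG5770. The named gene most like CG10912 and CG5770 was *Ugt37A3* (0.993 and 0.983), which was also the one most like CG11912 (0.993), a gene of arm 2L.

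Within 20 kb of each other lay 2 more pairs, each with 1 gene between. CG9449 and CG9452 on 3L both peaked at 0 h (r = 0.95), CG9449 from 1410, 924 and 1261 at -18 h to 2336, 2310 and 2160, and CG9452 from 985, 934 and 896 to 3712, 3576 and 3639. CG15818 and CG5177 on 2L were less alike (r = 0.88). Members were spread over all large arms, with 9 of 76 on the X (11.8%, against 18.4% of CG probe sets).

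The other 38 of the 53 genes highest at 0 h had fallen less than 4-fold by 4 h. Among these, CG14687 had the widest range and went from 101, 100 and 102 at -18 h through 1053, 1261 and 1072 at -4 h to 3794, 3647 and 3625 at 0 h. It read 3238, 2952 and 3141 at 2 h and 1190, 1202 and 901 at 4 h, 3.39-fold below its highest mean. Its -18 h arrays were the lowest of the course, and the closest named profiles were *santa-maria* (r = 0.97), *mino* and *pinta* (0.967 each).

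CG11899 and CG8501 hardly came down at all by 4 h. CG11899, named after its values were seen, rose from 175, 178 and 115 at -18 h to 1654, 1555 and 1438 at 0 h and read 1741, 1434 and 1220 at 4 h, 1.07-fold below its highest mean. CG8501 rose from 612, 369 and 546 to 2632, 2440 and 2460 and read 2827, 2155 and 2317 at 4 h. For both genes the arrays of 0 and 4 h overlapped.

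The study's text names CG8501 and 7 other members, CG2444, CG4822, CG5391, CG8483, CG11529, CG14664 and CG33090. CG4822, annotated with ATPase activity, rose from 279, 424 and 207 at -18 h to 1690, 1474 and 1379 at 0 h and read 365, 313 and 331 at 10 h. CG33090 was dim, at 99, 52 and 63 at -18 h, 466, 321 and 325 at 0 h and 136, 95 and 90 at 4 h. Both were highest at 0 h without overlap with the arrays of -18 h.

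Some members have a family name in the gene table. CG7888 (SLC36, a family of amino acid transporters) was flat in the larva, at 59, 80 and 67 at -18 h and 89, 83 and 84 at -4 h, and rose to 569, 400 and 335 at 0 h. CG7115 (PP2C, a class of protein phosphatases) rose from 384, 231 and 314 at -18 h to 1481, 1643 and 1534 at 0 h. CG2493 (Prcp) rose from 659, 462 and 466 to 2669, 2319 and 2254. These 3 genes were chosen for their annotation after their values were seen, and in each the 0 h arrays lay above all larval arrays.

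Counts of calls between neighbouring stages describe the same rise and fall. A probe set is called when limma's adjusted p (Benjamini-Hochberg, over 12867 tested probe sets) is under 0.1 and the change at least 1.5-fold. From -18 to -4 h 53 of the 76 genes were called higher and 1 lower, where 9.85% and 3.65% of all probe sets were called. From -4 to 0 h 25 were higher and 14 lower (background 4.59% and 3.37%). The 25 were all highest at 0 h and the 14 all highest at -4 h, as the choice of genes dictates. Leaving out 1 array of -4 or 0 h gave counts of 14 to 32 in place of 25, and the share over all probe sets moved too. The count was 14 without -4 h replicate 1 (1.99% of all probe sets) and without 0 h replicate 1 (2.25%). It was 32 without -4 h replicate 3 (8.21%).

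After pupariation 0 genes were called higher and 35 lower from 0 to 2 h (background 0.777% and 1.85%), and 0 higher and 33 lower from 2 to 4 h (1.48% and 1.27%). At an unadjusted p under 0.05 the higher counts were 0 and 1. From 4 to 6 h CG7888 was higher, 2.58-fold, and 19 genes were lower (1.86% and 1.46%). From 6 to 8 h 5 were higher, CG2070, CG7778, CG34417, CG5805 and CG2201, and 3 lower (3.71% and 1.55%). Among the 58 genes whose lowest stage was neither 6 nor 8 h, 5 were higher and 2 lower. The steps up to 2 h hold a stage that can be the highest, and the later falls lead toward the lowest stage, which the range used. The counts of all 6 steps are therefore given as a description, and nothing is read from them.

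Replicate 3 of 2 h stood apart in part of the genes. It was at least 2-fold above both other 2 h arrays in 4 members, CG5391, CG7606, CG15404 and CG15225, or 5.26% against 0.249% of all tested probe sets. CG5391 read 369, 351 and 1871 there and CG15404 372, 401 and 1412. The summed glue intensity of the 3 arrays was 6124, 3275 and 37618, and replicate 3 was above the highest 0 h array. All 4 genes were highest at -4 h, whereas CG14664 was lower in replicate 3 than in the others. Without this array 32 genes were called lower from 0 to 2 h (1.87% of all probe sets). From 2 to 4 h 27 were lower and 1 higher (1.04% and 1.43%).

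**Figure D4:**
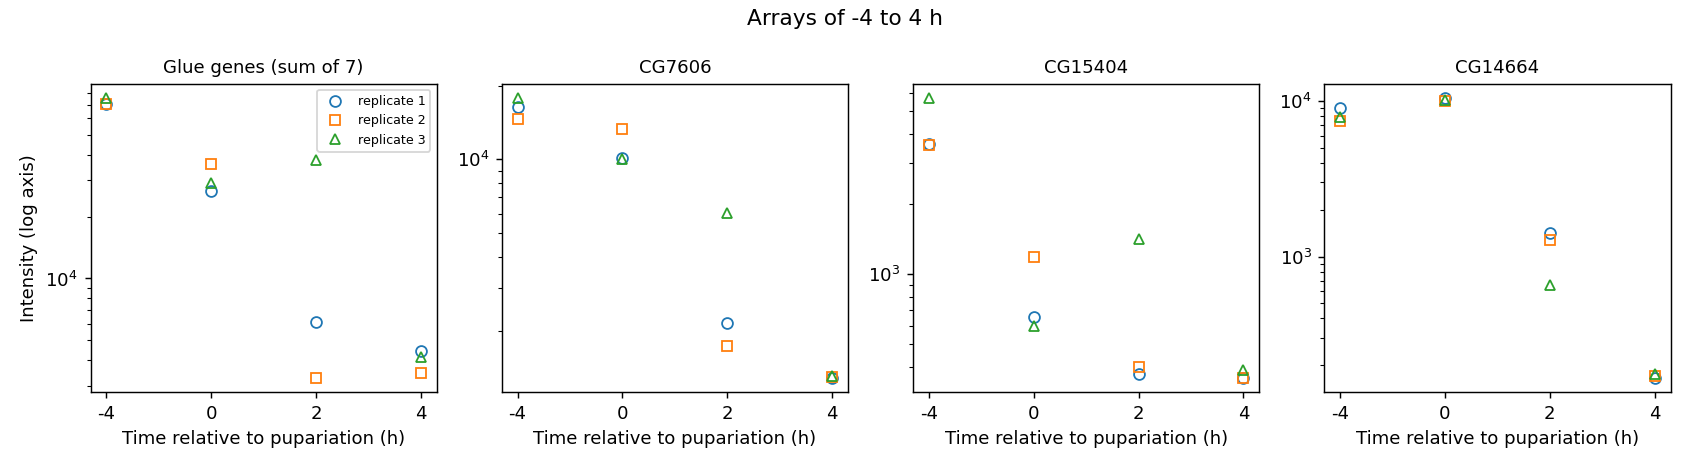
Intensity (log axis) in each array of -4, 0, 2 and 4 h for the sum of 7 glue genes and for CG7606, CG15404 and CG14664, with a symbol for each replicate. At 2 h, replicate 3 lies above the other 2 arrays for the glue sum and for CG7606 and CG15404, and below them for CG14664.

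The steps from 8 to 10 h and from 10 to 12 h hold no stage that could be a member's highest, and they ask whether the genes changed again around the prepupal pulse. Of the 76 genes, 4 were called higher at 10 than at 8 h (5.26%, where 2.03% of all probe sets were) and 3 lower (3.95%, against 3.38%). The count of 3 was 8 in the fit to the 6 arrays of the step, 8 with array weights and 6 without both deviating larval arrays. The shares of all probe sets called in these other fits are not given here, so nothing is read from their counts about the members. In the fit to all arrays the remaining 69 were not called, and the median change was -0.05 (log2), against 0.01 over all. Members were also chosen for a 4-fold range, which 8.27% of CG probe sets and 7.86% of those of named genes had. A share of calls above that of all probe sets is therefore in part built in. A member whose lowest stage is 8 or 10 h was chosen with that value, so 58 genes whose lowest stage lies elsewhere were counted apart, and 4 of them were higher and 2 lower.

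CG2444, which the gene table also lists as DIGF-6, was the strongest of them. It read 633, 418 and 484 at -18 h, 10531, 9384 and 9917 at -4 h, 9836, 11017 and 10530 at 0 h, and 576, 566 and 538 at 8 h. It returned to 3224, 3763 and 4353 at 10 h and 4978, 6504 and 6620 at 12 h. The rise from 8 to 10 h was 6.7-fold (SE 0.14 log2, adjusted p = 3.2e-12 by limma), and that from 10 to 12 h 1.6-fold (adjusted p = 0.003). The arrays did not overlap at either step, though the second call was lost without 10 h replicate 1. The closest named profiles were *Cpr49Ac* (r = 0.92), *Atg7* (0.909) and *Ddc* (0.879).

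CG8483, annotated with defense response, was high at 0 h and again at 10 h. Its arrays read 2356, 2265 and 2270 at 0 h, 837, 707 and 904 at 2 h, 1264, 1229 and 1117 at 4 h and 658, 594 and 623 at 8 h. At 10 h they read 1954, 2138 and 2211, a rise of 3.36-fold over 8 h (SE 0.13, adjusted p = 2.2e-09 by limma), and at 12 h 1096, 1599 and 1664. The 1.48-fold difference between 2 and 4 h was not called. The 10 h arrays lay above all arrays of 2 to 8 h and below those of 0 h.

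The other 2 rises were small. CG9701, with the name klotho, went from 212, 186 and 218 at 8 h to 348, 364 and 268 at 10 h (1.58-fold, SE 0.16, adjusted p = 0.011 by limma) and to 151, 181 and 274 at 12 h. CG12708 went from 149, 138 and 147 to 253, 246 and 267 (1.77-fold, SE 0.25, adjusted p = 0.048 by limma). Both calls were lost without 10 h replicate 2, and that of CG12708 without any 1 of the 6 arrays.

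CG2070 had a second, brief maximum at 8 h. It fell from 4543, 4168 and 4379 at 0 h to 418, 435 and 326 at 6 h, stood at 1276, 1315 and 1151 at 8 h, and was back at 340, 272 and 326 at 10 h. The fall from 8 to 10 h was 4-fold (SE 0.17, adjusted p = 1.4e-08 by limma), with no overlap. CG8745 fell 2.91-fold (SE 0.24, adjusted p = 7.8e-05 by limma), from 1205, 991 and 928 to 371, 364 and 334, but its lowest stage is 10 h. CG13962 fell 2.13-fold (adjusted p = 0.048 by limma), a call lost without 8 h replicate 1, 8 h replicate 2 or 10 h replicate 2.

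From 10 to 12 h 6 genes were called higher (7.89%, against 1.98% of all probe sets) and 4 lower (5.26%, against 2.9%). Among the 45 genes with the lowest stage outside the step, 5 were higher and 2 lower. The median change of the 76 was 0 to 2 decimals, and 66 were not called. Here too the choice of genes with a wide range raises the shares called.

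CG14687 led the rises at this step. Its arrays went from 228, 310 and 240 at 10 h to 1544, 1333 and 910 at 12 h, or 4.79-fold (SE 0.15, adjusted p = 3.1e-10 by limma). CG3999 went from 159, 159 and 172 to 606, 551 and 395, or 3.12-fold (SE 0.19, adjusted p = 2.4e-06 by limma). In both genes the 12 h arrays lay above all arrays of 8 and 10 h, and replicate 3 was the lowest of the 12 h arrays.

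CG8745 returned to 1157, 829 and 790, 2.56-fold above its lowest stage at 10 h (adjusted p = 0.00041 by limma). CG13796 went from 291, 178 and 193 to 954, 544 and 446 (2.85-fold, SE 0.36, adjusted p = 0.0096 by limma). CG5966 went from 70, 65 and 68 to 201, 150 and 79 (1.97-fold, SE 0.29, adjusted p = 0.042 by limma), a call that 5 of the 6 omissions of 1 array ended. It was also lost with a floor at 120 (0.35 log2, adjusted p = 0.56 by limma) and in the fit to the 6 arrays of the step (adjusted p = 0.17). Replicate 1 was the highest 12 h array in all 5 of these rises, and in CG2444 it was the lowest.

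The falls from 10 to 12 h were each under 2-fold. CG34417 fell 1.96-fold (SE 0.18, adjusted p = 0.0011 by limma), from 4167, 3290 and 3972, close to its 0 h level of 4319, 4134 and 3686, to 2036, 2103 and 1697. CG2201 fell 1.75-fold (SE 0.26, adjusted p = 0.072 by limma), from 401, 384 and 356 to 312, 214 and 154, a call that 5 of the 6 omissions of 1 array ended, as did the fit to the 6 arrays of the step and log2 of the intensity plus 16 without a floor. CG9701 and CG5177 fell 1.65- and 1.77-fold to their lowest stage, and the arrays of CG9701 overlapped. The calls of CG9701 and CG5177 were lost without 12 h replicate 1 and without 10 h replicate 3, respectively. That of CG9701 was also lost in the fit to the 6 arrays (adjusted p = 0.17 by limma).

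**Figure D5:**
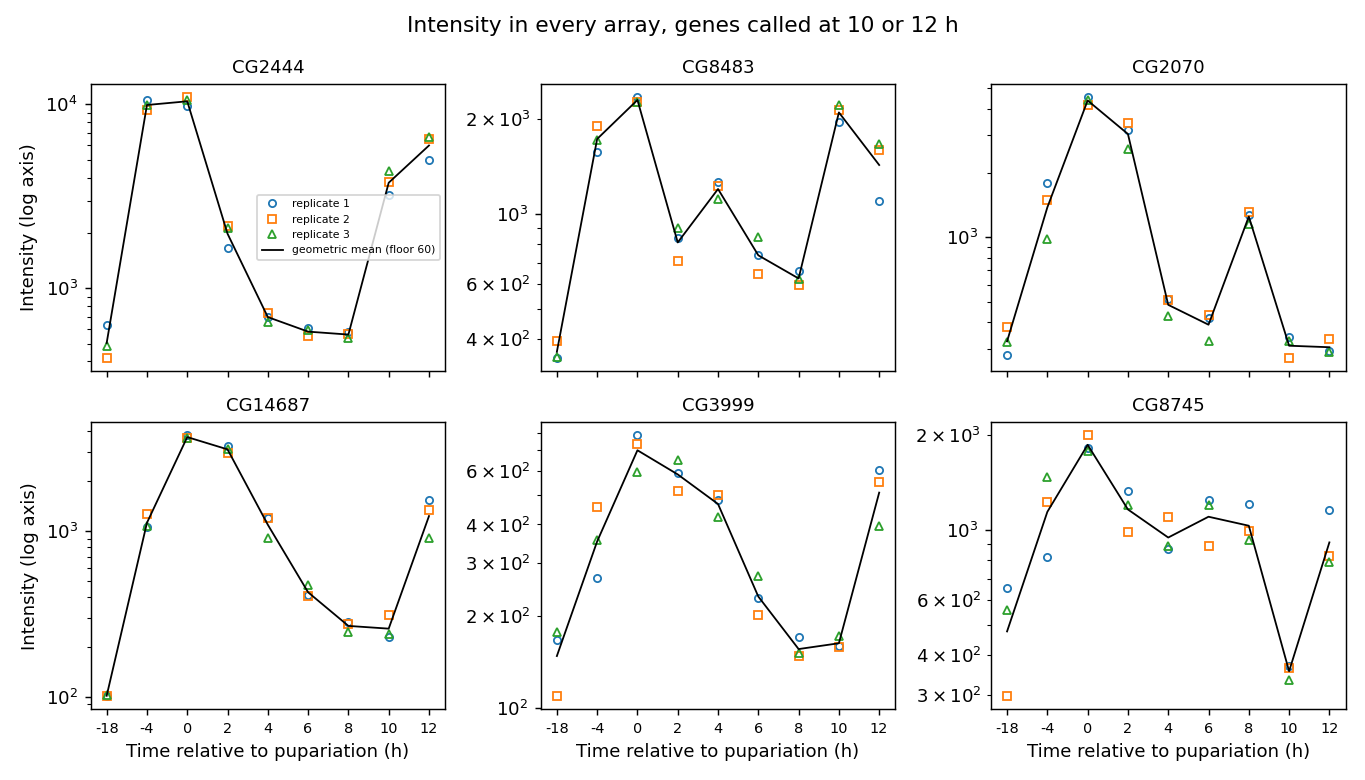
Intensity (log axis) of 6 genes called between 8 and 10 h or between 10 and 12 h in each of the 27 arrays against hours relative to pupariation, with a symbol for each replicate and a line through the geometric means of floored values. CG2444 and CG8483 rose from 8 to 10 h, CG2070 fell back from its 8 h level, and CG14687, CG3999 and CG8745 rose from 10 to 12 h.

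By their stage means alone, 11 of the 76 genes stood at least 2-fold higher at 10 or 12 h than at the lowest of 4, 6 and 8 h, 10 of them highest at 0 h and 1, CG12708, at -4 h. The other 65 stayed within that limit, including CG14664, CG15818 and CG11529, of which no array from 4 h on was above 232. The measure sets the higher of the later means against the lowest of the earlier ones, which favours a rise. Its share over all probe sets is not given here, so nothing is read from the count. Nor did each rise fall at 10 or 12 h. CG7778 rose 3.46-fold from 6 to 8 h and CG7888 2.58-fold from 4 to 6 h, and neither was called higher after 8 h.

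Some regulators of or responders to 20E also changed at these steps. Of 22 genes listed as regulators of or responders to 20E, 19 were measured, with 24 probe sets. From -18 to -4 h 10 probe sets were called higher and 0 lower, from -4 to 0 h 4 and 1, from 8 to 10 h 5 and 2, and from 10 to 12 h 0 and 3. Over all probe sets the shares were, in the same order, 9.85% and 3.65%, 4.59% and 3.37%, 2.03% and 3.38%, and 1.98% and 2.9%. The transcription factor gene *Sox14* was called higher from 8 to 10 h, 3.98-fold, and *brat* 2.59-fold, while the nuclear receptor gene *ftz-f1* was lower, 4.77-fold. CG8483 was called higher at the same step as *Sox14*, CG2444 at that step and the next, and CG14687 and CG3999 at the next one alone. *Sox14* was called lower at that next step, 1.79-fold. Whether a gene's change differed between the 2 steps was not tested, nor was any link between a member and the hormone or these genes in these arrays. The study's own organ culture and *EcR* RNA interference experiments cover the members it names.

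Some tanning markers moved at several of these stages as well. All 6 listed epidermal tanning genes were measured, and their summed intensity lay between 2586 and 4229 in the -18 h arrays and between 31219 and 32405 in those of 0 h. It was between 4314 and 4715 in the 10 h arrays and higher, between 9208 and 11278, in those of 12 h, with no overlap. Such a sum weighs bright probe sets most, and the list did not move as a whole. Of its 7 probe sets, 4 were called higher and 1 lower from -18 to -4 h. From 8 to 10 h 2 were higher and 2 lower, and from 10 to 12 h 2 and 0, with a median change of 0.32 (log2). The sum of 3 measured fat body markers, of 6 listed, held between 43432 and 53974 over all arrays. How far changes in the share of a tissue enter the values of any member was not tested.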

How the data were processed

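The deposited values are intensities on a linear scale from Affymetrix *Drosophila* Genome Arrays, normalized between arrays by the authors with dChip 1.2. The methods describe the experiments as independent and in triplicate, so p-values measure the spread between such samples. Symbols came from the array's annotation, updated through a reference gene table (Release 6 plus ISO1 MT). Of 13966 probe sets 12443 had 1 symbol, 12394 of them matched, 327 had several and 1196 none. Values under 60 were set to 60 before log2. Folds are ratios of geometric means. Tests covered 12867 probe sets above 60 in all 3 arrays of at least 1 stage, which include all 76 members, and left out 1099.

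Stages were compared by lmFit and eBayes of limma 3.58.1 under R 4.3.3 (stage as the only factor, all 27 arrays, 18 residual degrees of freedom, prior 3.54), after a test on simulated data. A call needed a Benjamini-Hochberg adjusted p under 0.1 and 1.5-fold. The members, lists, classes and tests were chosen with earlier results of these data known. Named members were the 8 widest ranges at -4 and at 0 h, those called at the last 2 steps, neighbours within 20 kb, those nearest the 4-fold limit and those the study's text names, and for the widest ranges the 3 named genes with the most similar stage means were looked up. Members outside this rule are described as chosen after their values were seen. Alternatives changed the floor, scaling, filter, samples, weights and block. Sequence features were not analysed here. Figures were drawn with matplotlib 3.10.9.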

Additional observations from a re-analysis of the deposited data

How the results depend on the processing

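Between 8 and 10 h, 8 members were called lower in the fit to the 6 arrays of the step and 8 with array weights, against 3 in the fit to all arrays. Without both deviating larval arrays, a setting chosen after seeing the data, 6 were. Each lower count included the 3. Leaving out 1 array at a time gave 2 to 3 members higher and 2 to 3 lower at this step, and 4 to 7 higher and 2 to 5 lower from 10 to 12 h. The count of 4 higher at 10 h became 2 without 10 h replicate 2, and that of 4 lower at 12 h became 2 without 10 h replicate 3. The causes of these differences were not tested, and the shares of all probe sets called under these settings are not given here. The rule itself gave 71 to 91 members when 1 array of -18, -4 or 0 h was left out (91 without 0 h replicate 3). It gave 73 under quantile normalization and 69 with a floor at 120. Arrays of later stages were not left out for this count. With the replicate number as a block (replicate block), 4 members were higher and 4 lower from 8 to 10 h, and 6 and 4 from 10 to 12 h. Same-numbered arrays deviated together (correlation over 0.1) in 4 of 6 checks, with values from -0.064 to 0.471, and 4 of 6 correlated best with their own number. Whether equal numbers mark paired samples was not tested. The main fit took no block because the study's methods describe none. Of 238 re-computations of the 17 named changes 210 left the call as it was, 28 lost it and 0 turned the direction. The sequence comparisons planned for these genes were not run.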
